A study of Homo with 2 samples.

Results

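Collagens are trimeric proteins of the extracellular matrix, and each trimer is wound from chains that separate genes encode. The members described here are every gene whose symbol has the form of a collagen chain (COL, a type number, A, a chain number), 44 of 28363 genes, and all 44 are listed in both count tables. Their transcripts were described in human blastoids, embryo-like aggregates grown from pluripotent stem cells, at day 4. All cells descend from the established human embryonic stem cell line KhES1, and 2 libraries of this 1 group are analysed here. Per the labels, dissociated cells formed aggregates over 24 h in microwells and then stayed for 4 days in a hydrogel, in high-glucose DMEM with 10% serum and the ROCK inhibitor Y27632 at 10 µM, which both libraries share. The comparisons are therefore between kinds of cells within the libraries. Barcodes entered when they had 1000 or more detected genes and no more than 20% mitochondrial molecules, 937 of 1988 in library 1 and 1519 of 2601 in library 2. The labels do not say whether the libraries came from separate cultures. A shift shared by a whole library was fitted apart, so p-values rest on how evenly differences between kinds of cells repeated. The spread was pooled over genes. In the comparison of classes it also took in kinds of cells outside that comparison. A small p-value there does not mean that the fold of a chain was even between the libraries. That spread may be technical.

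Fibrillar chains such as those of types I, II, III and V build the banded fibrils of connective tissue, and fibril-associated chains bind to the surface of those fibrils. Type IV chains form the sheet-like network of basement membranes, which underlies epithelia including trophectoderm and amnion. Type VI chains form beaded microfilaments close to cells, and the transmembrane chains stay anchored in the plasma membrane. In the early embryo and the membranes around it, collagens are laid down both under epithelia and in the loose tissue between them.

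The 2 tables hold a median of 35059 unique molecules (UMIs) per kept barcode in library 1 and 25116 in library 2, and 1 barcode sequence occurs in both. Levels are given as CPM, the usual depth-scaled unit of UMI counts. Each molecule is tagged near its 3' end, so levels of different chains are set side by side without dividing by length. Cells were clustered from a random portion of each cell's UMIs without the collagen chains and without genes that act on collagen, and every level below that is given for a class of cells was read from the other portion. The class that matched the trophectoderm or amnion markers held 649 and 793 cells of libraries 1 and 2, the epiblast-like class 49 and 82, and the syncytiotrophoblast-like class 28 and 85. A further cluster of 97 and 422 cells also matched the trophectoderm or amnion markers best, with 14 of 14 at 10 CPM or more. It stayed unnamed for its depth, a median of 27558 and 4300.5 UMIs, and is outside the trophectoderm/amnion-like class. Summed over its marker list, the epiblast list stood at 2138 and 2562 CPM in the epiblast-like class and at 599 and 581 CPM in the trophectoderm/amnion-like class. The epiblast-like class also carried the primitive streak and mesoderm list at 584 and 701 CPM, against 5.63 and 4.14 CPM in the trophectoderm/amnion-like class. Its name is therefore uncertain: when cells were clustered again under 5 other settings, the same naming score gave the matching cluster the streak and mesoderm name 3 times and no name 2 times. The mesenchyme list stood at 254 and 209 CPM in the epiblast-like and at 734 and 770 CPM in the trophectoderm/amnion-like class, where LUM alone reached 287 and 320 CPM. The part of these other programmes in the collagen differences was not tested.

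The collagen chains together took 1219 CPM in library 1 and 1140 CPM in library 2, a mean of 1180 ± 56.1 (SD, n = 2 libraries). Of the 44 chains, 11 reached 50 CPM on average, 12 lay from 10 to 50 CPM, 4 from 5 to 10 CPM and 17 under 5 CPM. The 5 most abundant chains held 41.7% of all collagen UMIs. Most chains, 37 of 44, were higher in library 1, and among the 27 chains at 5 CPM or more 1 differed by over 1.5-fold between the libraries. That chain was COL8A1, at 7.21 and 4.46 CPM, a short-chain collagen of the membranes under endothelia.

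Fibrillar chains made up 39.7 ± 0.343% (SD, n = 2) of the collagen UMIs. The highest chain of all was COL5A2, which joins type V trimers inside type I fibrils, at 183 and 172 CPM in libraries 1 and 2. Its partner COL5A1 stood at 62.7 and 59.3 CPM. COL3A1, the chain of the homotrimeric type III collagen of soft tissues, was at 62.6 and 62.3 CPM. Transcripts of COL2A1, the type II chain best known from cartilage and notochord, were nearly as abundant at 52.2 and 51.5 CPM. Of the pair that makes type I collagen, COL1A2 was at 51.3 and 50.4 CPM and COL1A1 at 28.1 and 26.9 CPM. COL27A1, known from the growth plate, was at 20.7 and 17.2 CPM. COL11A1, which starts type II fibrils, was at 14.4 and 10.1 CPM. The type I chains so often taken as markers of connective tissue thus stood below the type V chain in both libraries.

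Among fibril-associated chains COL21A1 led with 102 and 87.3 CPM, second of all chains. COL12A1, which decorates type I fibrils, was at 51.5 and 49.6 CPM. Its relative COL14A1 was at 13.7 and 11.7 CPM. COL16A1 and COL9A3 were lower, at 9.101 and 10.6 CPM and at 7.77 and 7.76 CPM.

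Type IV chains together held 12.9 ± 0.322% (SD, n = 2) of the collagen UMIs. COL4A5 was the highest of them at 89.6 and 87.5 CPM, and COL4A6, which joins the same trimer, was at 23.1 and 24.3 CPM. COL4A2 was at 23.5 and 21.5 CPM and COL4A1 at 15.4 and 13.8 CPM, although these are the chains of the widespread type IV trimer. The chains COL4A3 and COL4A4, which join COL4A5 in the mature kidney and lung, were near the bottom at 0.988 and 0.751 CPM and at 1.601 and 1.59 CPM. COL18A1, a basement membrane chain that carries heparan sulfate and yields endostatin, was at 48.9 and 50.01 CPM.

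Type VI chains held 10.4 ± 0.309% (SD, n = 2). COL6A3 was at 43.5 and 40.7 CPM and COL6A1 at 32.2 and 30.9 CPM. The third chain of the classical trimer, COL6A2, was at 21.6 and 18.6 CPM. COL6A6, which can take the place of COL6A3, was at 29.9 and 23.5 CPM. The transmembrane chains held 11.2 ± 0.0662% (SD, n = 2). COL25A1, known from motor neuron and muscle contact, was at 69.5 and 66.7 CPM. COL23A1 was at 61.1 and 54.2 CPM and COL13A1, a chain of the neuromuscular junction, at 6.35 and 5.94 CPM. COL26A1, a short collagen outside the main families, was at 57.3 and 52.7 CPM. Levels spanned from COL5A2 down to COL20A1 at 0.0801 and 0.114 CPM, and the sources do not say whether reads in introns were counted. Across the 44 chains Spearman's rho between level and length of the gene on the genome was 0.296, a description across genes, which are not independent replicates.

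**Figure D1:**
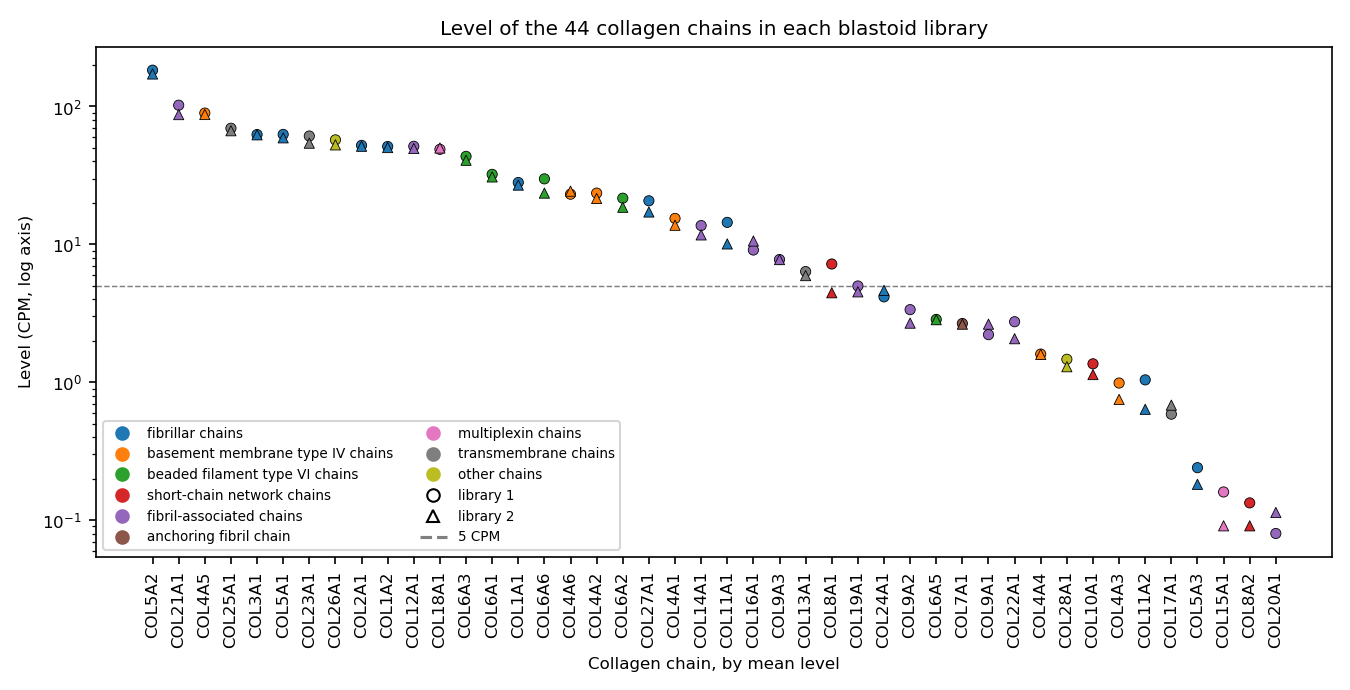
Level of each of the 44 chains in CPM (log axis), ordered by mean level and coloured by family, with a circle for library 1 and a triangle for library 2. COL5A2 stands alone at the top at 183 and 172 CPM, and 17 chains lie on average under the dashed line at 5 CPM.

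The 17 chains under 5 CPM were COL19A1, COL24A1, COL9A2, COL6A5, COL7A1, COL9A1, COL22A1, COL4A4, COL28A1, COL10A1, COL4A3, COL11A2, COL17A1, COL5A3, COL15A1, COL8A2 and COL20A1. The last 7 of these were under 1 CPM on average. They include COL17A1, the transmembrane chain of the hemidesmosome. COL7A1, which forms the anchoring fibrils under squamous epithelia, was at 2.67 and 2.64 CPM.

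In the plot of levels, single cells are summed, so the number of chains a cell carries was counted after thinning each cell to 5000 UMIs. This left out 110 cells of library 1 and 381 of library 2, which were shallower. At that depth the median cell held 4 chains in each library, and 96.9% and 97.6% of cells had at least 1 UMI of any chain. At full depth the medians were 13 and 10 chains. A UMI of COL5A2 was found in 366 of 621 (58.9%, 54.95 to 62.8%) of the trophectoderm/amnion-like cells of library 1 and in 427 of 752 (56.8%, 53.2 to 60.4%) of those of library 2 (brackets give the 95% interval by the exact Clopper-Pearson method, which covers counting error alone). In the epiblast-like class the counts were 6 of 48 (12.5%, 4.73 to 25.2%) and 12 of 82 (14.6%, 7.797 to 24.2%). For COL3A1 they were 133 of 621 (21.4%, 18.3 to 24.9%) and 177 of 752 (23.5%, 20.5 to 26.7%) in the trophectoderm/amnion-like class. In the epiblast-like class 0 of 48 cells of library 1 had a COL3A1 UMI. The upper bound of the same exact interval is 7.397%, and the limit of 3 counts used for a count of 0 is 6.25%. Library 2 had 2 of 82 (2.44%, 0.297 to 8.53%). COL3A1 was thus rarely detected at this depth in the epiblast-like cells, whose median depth was 54871 and 50909 UMIs, against 37816 and 33623 UMIs in the other class. Without thinning the COL3A1 shares were 45.6% and 45.1% in the trophectoderm/amnion-like class and 2.04% and 7.32% in the epiblast-like class.

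The trophectoderm/amnion-like class was then compared with the epiblast-like class, which is mixed, as its sub-clusters below show. The fibril-associated chain COL12A1, the type VI chain COL6A3 and the fibrillar chain COL3A1 were far higher in the trophectoderm/amnion-like class. In the epiblast-like class 4 of 5 type IV chains tested, COL6A1 and COL13A1 were higher. This did not hold for all its cells. In those highest in SOX2, COL13A1 was below the trophectoderm/amnion-like level in both libraries, and COL6A1 was above it in library 2 alone. Of the 44 chains, 30 passed the filter on low counts and were tested, 12 rose, 10 fell and 8 did not pass the test (edgeR quasi-likelihood test, Benjamini-Hochberg adjusted p under 0.05 over all 13493 genes tested). Of all genes tested 47.4% were called in either direction, 23.9% higher and 23.5% lower, and the count of chains called is to be read against those shares. The median log2 fold change was 0.22 over the 30 chains and 0.019 over all genes tested. A positive log2 fold change means higher in the trophectoderm/amnion-like class, the level is given for libraries 1 and 2 in that order, and n = 2 libraries in each class. Of the 22 calls, 16 were also made under each of 13 other settings. The other 6 were COL6A3, COL19A1, COL18A1, COL4A5, COL27A1 and COL9A1.

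**Figure D2:**
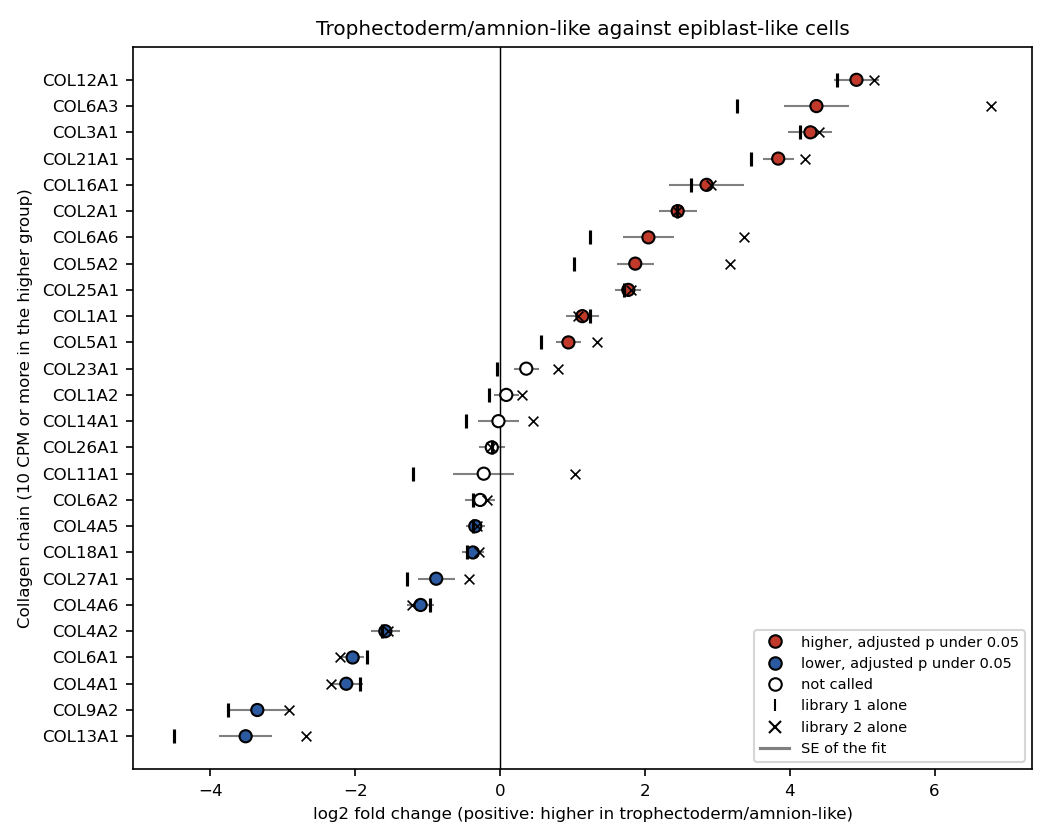
Log2 fold change of the chains tested at 10 CPM or more in the higher class, trophectoderm/amnion-like over epiblast-like. Circles are the fit with its SE (grey lines), bars and crosses are the libraries taken alone. COL12A1 stands highest at 4.92 and COL13A1 lowest at -3.51, and COL6A3, COL11A1, COL5A2 and COL6A6 are the 4 that differ most between the libraries.

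Of the 11 fibrillar chains 8 were tested, 5 rose and 1 fell. COL3A1 was at 70.03 and 76.1 CPM in the trophectoderm/amnion-like and 4.28 and 3.79 CPM in the epiblast-like class (log2 fold change 4.29 ± 0.30 SE, adjusted p = 2.88e-12). COL2A1 was at 61.5 and 62.9 against 12.2 and 12.2 CPM (log2 fold change 2.45 ± 0.26 SE, adjusted p = 8.88e-09). COL1A1 was at 31.9 and 32.6 against 14.7 and 16.4 CPM (log2 fold change 1.14 ± 0.23 SE, adjusted p = 0.00018). In these 3 chains the libraries were close to each other. The classes did not overlap in them, but neither did they in COL6A2 and COL26A1, which were not called.

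The type V chains were less even between libraries. COL5A2 was at 205 and 205 CPM in the trophectoderm/amnion-like class and at 110.0 and 24.02 CPM in the epiblast-like class (log2 fold change 1.87 ± 0.26 SE, adjusted p = 7.16e-07). The fold was 1.02 in library 1 alone and 3.18 in library 2 alone, so its size was set by how much COL5A2 the epiblast-like cells of each library held. COL5A1 was at 68.8 and 69.3 against 50.7 and 29.1 CPM (log2 fold change 0.94 ± 0.17 SE, adjusted p = 5.85e-05), with 0.56 and 1.34 in the libraries alone. COL27A1 was the fibrillar chain that fell, at 19.5 and 17.97 against 51.96 and 25.7 CPM (log2 fold change -0.88 ± 0.25 SE, adjusted p = 0.00518). The call of COL27A1 was lost under the DESeq2 Wald test. COL1A2, at 49.1 and 53.4 against 59.3 and 45.9 CPM (log2 fold change 0.086 ± 0.17 SE, adjusted p = 0.71), and COL11A1, at 11.98 and 11.5 against 29.95 and 5.900 CPM (log2 fold change -0.23 ± 0.42 SE, adjusted p = 0.694), overlapped between the classes and were not called.

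Of the 10 fibril-associated chains 8 were tested, 4 rose and 2 fell. COL12A1 was at 57.6 and 57.9 CPM in the trophectoderm/amnion-like class and near 0 in the epiblast-like class, at 2.44 and 1.69 CPM, 8 UMIs in all (log2 fold change 4.92 ± 0.31 SE, adjusted p = 2.74e-13). COL21A1 was at 125 and 118 against 12.2 and 6.74 CPM (log2 fold change 3.84 ± 0.21 SE, adjusted p = 1.48e-14). COL16A1 was at 10.6 and 12.1 against 1.83 and 1.69 CPM (log2 fold change 2.85 ± 0.51 SE, adjusted p = 4.2e-05). These 3 chains were high in both libraries of one class and low in both of the other. COL19A1 rose too, but on 121 UMIs against 1, a ratio of levels of 16.9 with a 95% counting interval of 2.97 to 671. Its level was higher in the syncytiotrophoblast-like class, outside this comparison, and it may have passed the filter on low counts through those cells. The type IX chains, which sit on type II fibrils, went the other way from COL2A1 or were not called. COL9A2 was at 1.498 and 1.49 against 22.6 and 12.2 CPM (log2 fold change -3.35 ± 0.42 SE, adjusted p = 3.09e-07). COL9A1 fell as well, at 1.71 and 2.58 against 9.78 and 8.43 CPM, a call that was not made under 3 of the 13 other settings. COL9A3, at 7.702 and 8.41 against 7.95 and 5.06 CPM, was not called. COL14A1 was at 14.2 and 14.2 against 21.4 and 10.96 CPM (log2 fold change -0.022 ± 0.28 SE, adjusted p = 0.96) and was not called either.

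Type IV chains went the other way: of the 5 tested, 4 fell and 0 rose. COL4A1 was at 11.9 and 8.27 CPM against 49.5 and 44.7 CPM in the epiblast-like class (log2 fold change -2.12 ± 0.23 SE, adjusted p = 9.09e-09). COL4A2 was at 19.5 and 17.1 against 66.01 and 53.1 CPM (log2 fold change -1.58 ± 0.20 SE, adjusted p = 1.91e-07). COL4A6 was at 22.2 and 21.6 against 47.1 and 53.1 CPM (log2 fold change -1.10 ± 0.18 SE, adjusted p = 1.77e-05). COL4A1, COL4A2 and COL4A6 were lower in each library taken alone. COL4A5 differed least, at 89.6 and 88.98 against 127 and 118 CPM (log2 fold change -0.34 ± 0.13 SE, adjusted p = 0.0319), and its fold became 0.013 without the 18 epiblast-like cells of the sub-cluster highest in GATA3. Its call was also lost without the filter on low counts and with another random split of the UMIs. COL4A3 was tested on 2 UMIs in the epiblast-like class and was not called. Summed, type IV chains stood at 146 and 138 CPM in the trophectoderm/amnion-like and 291 and 271 CPM in the epiblast-like class. COL18A1 was at 48.99 and 49.7 against 73.3 and 64.9 CPM (log2 fold change -0.37 ± 0.15 SE, adjusted p = 0.0417). Its call was lost in each of the 3 fits that left out a sub-cluster of the epiblast-like class (fold -0.19 without the one highest in GATA3) and without the filter on low counts.

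The type VI chains split. COL6A3 was at 49.1 and 47.6 CPM in the trophectoderm/amnion-like and 5.501 and 0.421 CPM in the epiblast-like class, there on 10 UMIs (log2 fold change 4.37 ± 0.44 SE, adjusted p = 4.06e-09). The DESeq2 Wald test gave COL6A3 a fold of 3.80 and an adjusted p of 0.0509. COL6A6 was at 32.02 and 29.03 against 14.7 and 2.95 CPM (log2 fold change 2.05 ± 0.35 SE, adjusted p = 1.91e-05), with 1.25 in library 1 and 3.37 in library 2. COL6A1 went the opposite way, at 24.7 and 22.5 against 95.97 and 111 CPM (log2 fold change -2.03 ± 0.15 SE, adjusted p = 8.86e-12). COL6A2, the third chain, was at 22.9 and 20.96 against 32.4 and 25.3 CPM (log2 fold change -0.27 ± 0.21 SE, adjusted p = 0.297) and was not called. The chains of the classical type VI trimer were thus at unlike levels in the epiblast-like cells, with COL6A1 high, COL6A2 intermediate and COL6A3 near 0.

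Among transmembrane chains COL25A1 was at 77.4 and 74.9 against 25.7 and 22.8 CPM (log2 fold change 1.77 ± 0.18 SE, adjusted p = 2.72e-09). COL13A1 was at 1.93 and 3.87 against 48.3 and 26.6 CPM (log2 fold change -3.51 ± 0.37 SE, adjusted p = 6.29e-09). COL23A1, at 66.9 and 64.97 against 75.2 and 39.6 CPM (log2 fold change 0.36 ± 0.17 SE, adjusted p = 0.0819), was not called but was called higher under 3 of the other settings. COL26A1, at 58.8 and 51.8 against 69.1 and 60.3 CPM (log2 fold change -0.11 ± 0.18 SE, adjusted p = 0.627), was not called and was called lower under 2. The 14 chains not tested, among them all short-chain network chains and COL7A1, did not pass the filter. The filter took in all classes and unnamed clusters of the fit, so a chain could pass through cells outside the comparison. The best covered of these was COL8A1 with 194 UMIs in the trophectoderm/amnion-like class and 1 in the epiblast-like class, a ratio of levels of 27.0 with a 95% counting interval of 4.80 to 1073.

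Chains that share a trimer can be compared as a ratio of their UMIs, with no test between classes; intervals are exact and cover counting error only. The ratio of COL6A1 to COL6A2 was 2.96 (95% interval 2.16 to 4.12) in library 1 and 4.400 (3.31 to 5.93) in library 2 in the epiblast-like class. In the trophectoderm/amnion-like class it was 1.08 (95% interval 0.923 to 1.26) in library 1 and 1.07 (0.917 to 1.26) in library 2. The intervals of these 2 classes did not overlap in either library. In the syncytiotrophoblast-like class the ratio was 2.58 (95% interval 1.29 to 5.52) in library 1 and 2.29 (1.34 to 4.02) in library 2. Those intervals overlapped the epiblast-like ones in both libraries, so a high ratio was not particular to the epiblast-like class. For COL1A1 to COL1A2, which enter the type I trimer at 2 copies to 1, the ratio was 0.247 (95% interval 0.151 to 0.3900) in library 1 and 0.358 (0.242 to 0.5202) in library 2 in the epiblast-like class. It was 0.651 (95% interval 0.577 to 0.735) in library 1 and 0.6099 (0.543 to 0.684) in library 2 in the trophectoderm/amnion-like class and 0.111 (95% interval 0.0391 to 0.258) in library 1 and 0.186 (0.0942 to 0.339) in library 2 in the syncytiotrophoblast-like class. The transcript ratio lay under 1 in all of these.

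For COL4A5 to COL4A6 the ratio was 2.69 (95% interval 2.06 to 3.54) in library 1 and 2.21 (1.79 to 2.75) in library 2 in the epiblast-like class and 4.04 (95% interval 3.56 to 4.59) in library 1 and 4.13 (3.65 to 4.68) in library 2 in the trophectoderm/amnion-like class. For COL4A1 to COL4A2 it was 0.7500 (95% interval 0.555 to 1.01) in library 1 and 0.841 (0.644 to 1.098) in library 2 in the epiblast-like class and 0.609 (95% interval 0.4998 to 0.742) in library 1 and 0.484 (0.387 to 0.603) in library 2 in the trophectoderm/amnion-like class. The COL5A1 to COL5A2 ratio was 0.335 (95% interval 0.311 to 0.361) in library 1 and 0.338 (0.314 to 0.363) in library 2 in the trophectoderm/amnion-like class. In the epiblast-like class it was 0.461 (95% interval 0.351 to 0.601) in library 1 and 1.21 (0.8400 to 1.75) in library 2, so the libraries disagreed there. In the RefSeq annotation (GRCh38.p14) COL4A1 (chr13:110148963-110307157) and COL4A2 (chr13:110307284-110513209) lie 126 bases apart. COL4A6 (chrX:108155614-108439458) and COL4A5 (chrX:108439838-108697545) lie 379 bases apart. In both pairs the neighbours fell together in the class comparison. COL3A1 (chr2:188974373-189012746) and COL5A2 (chr2:189031898-189441111), 19151 bases apart, both rose. Other neighbours did not move together: COL19A1 rose and COL9A1 fell, with 2592 bases between them on chromosome 6. Of COL4A4 and COL4A3, 135 bases apart, COL4A4 was not tested and COL4A3 was not called. COL18A1, COL6A1 and COL6A2 follow one another on chromosome 21 (chr21:45405165-45513720, chr21:45981770-46005048 and chr21:46098112-46132848) with distances of 468049 and 93063 bases, and COL6A2 alone of them was not called.

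**Figure D3:**
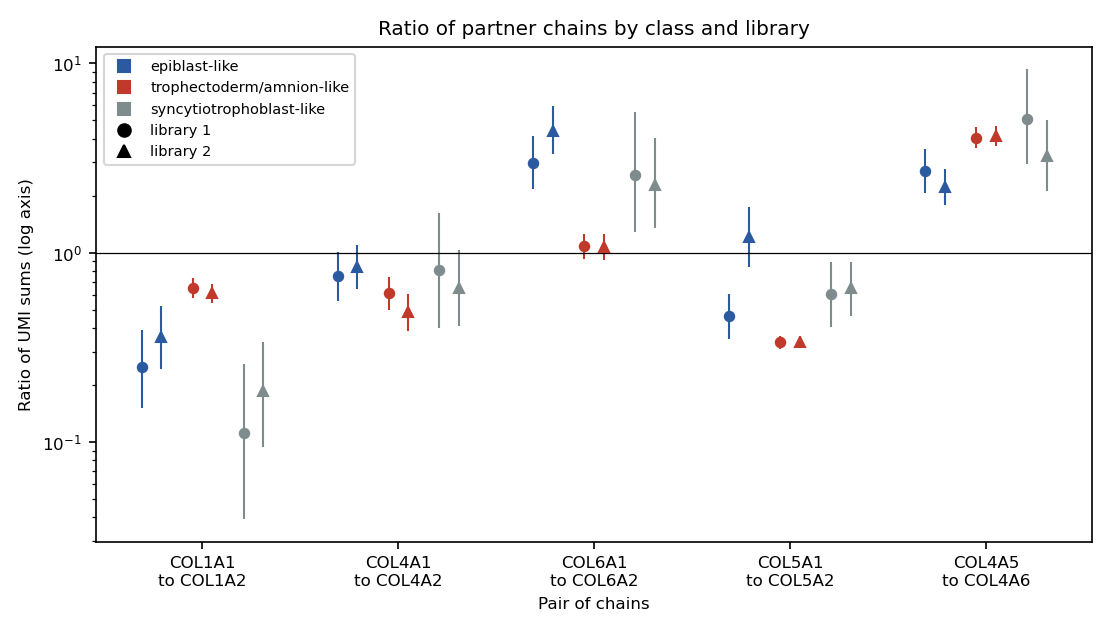
Ratio of the summed UMIs of partner chains (log axis) in each class and library, with exact 95% counting intervals. The COL6A1 to COL6A2 ratio of the epiblast-like class (blue) lies above that of the trophectoderm/amnion-like class (red) in both libraries, and its COL5A1 to COL5A2 ratio differs between libraries.

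The epiblast-like class was not uniform. Its 131 cells fell into 5 sub-clusters of 18 to 33 cells, formed without the collagen genes and described here with no test. In the 29 cells highest in SOX2 (SOX2 at 260.3 and 251 CPM), COL5A2 was at 2.92 and 4.19 CPM and COL3A1 and COL5A1 had no UMI in the portion read. In the 29 cells highest in TBXT, a gene of the primitive streak (TBXT at 152 and 245 CPM), COL5A2 was at 277 and 82.5 CPM and COL5A1 at 129 and 146 CPM. The same streak-type cells carried COL6A1 at 189.8 and 237 CPM and COL13A1 at 136 and 116 CPM. In the SOX2-highest cells COL6A1 was at 8.77 and 41.9 CPM and COL13A1 at 0 and 2.09 CPM. The TBXT-highest cells were thus the highest of the 5 sub-clusters in COL5A1, COL6A1 and COL13A1. By the naming score they matched the primitive streak and mesoderm list. The SOX2-highest cells and the sub-cluster of 33 cells were named epiblast, and the others stayed unnamed.

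A sub-cluster of 22 cells, 5 in library 1 and 17 in library 2, had the trophectoderm or amnion list as its best match and stayed unnamed. It carried COL5A2 at 311 and 86.3 CPM and COL6A6 at 96.5 and 3.75 CPM, high in the library with 5 cells. The 18 cells highest in GATA3 had the highest COL4A5, at 206 and 207 CPM, and COL4A6 at 91.7 and 94.1 CPM. The largest sub-cluster, 33 cells, had COL6A1 at 133 and 147 CPM with COL5A2 at 0 and 1.47 CPM. COL4A1 went another way than COL4A5, from 22.3 and 20.5 CPM in the GATA3-highest to 63.3 and 66.02 CPM in the TBXT-highest cells. Summed, type IV chains ranged over the sub-clusters from 177 and 285 CPM in the 22 unnamed cells to 379 and 359 CPM in the GATA3-highest cells. Left out in turn, these sub-clusters moved the class folds: COL5A2 went from 1.87 to 2.89 without the TBXT-highest cells and to 2.30 without the 22 unnamed cells. COL5A1 went to 2.35 and COL13A1 to -2.14 without the TBXT-highest cells. COL6A3 went to 6.46 and COL6A6 to 3.26 without the 22 unnamed cells. All of these kept their call.

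**Figure D4:**
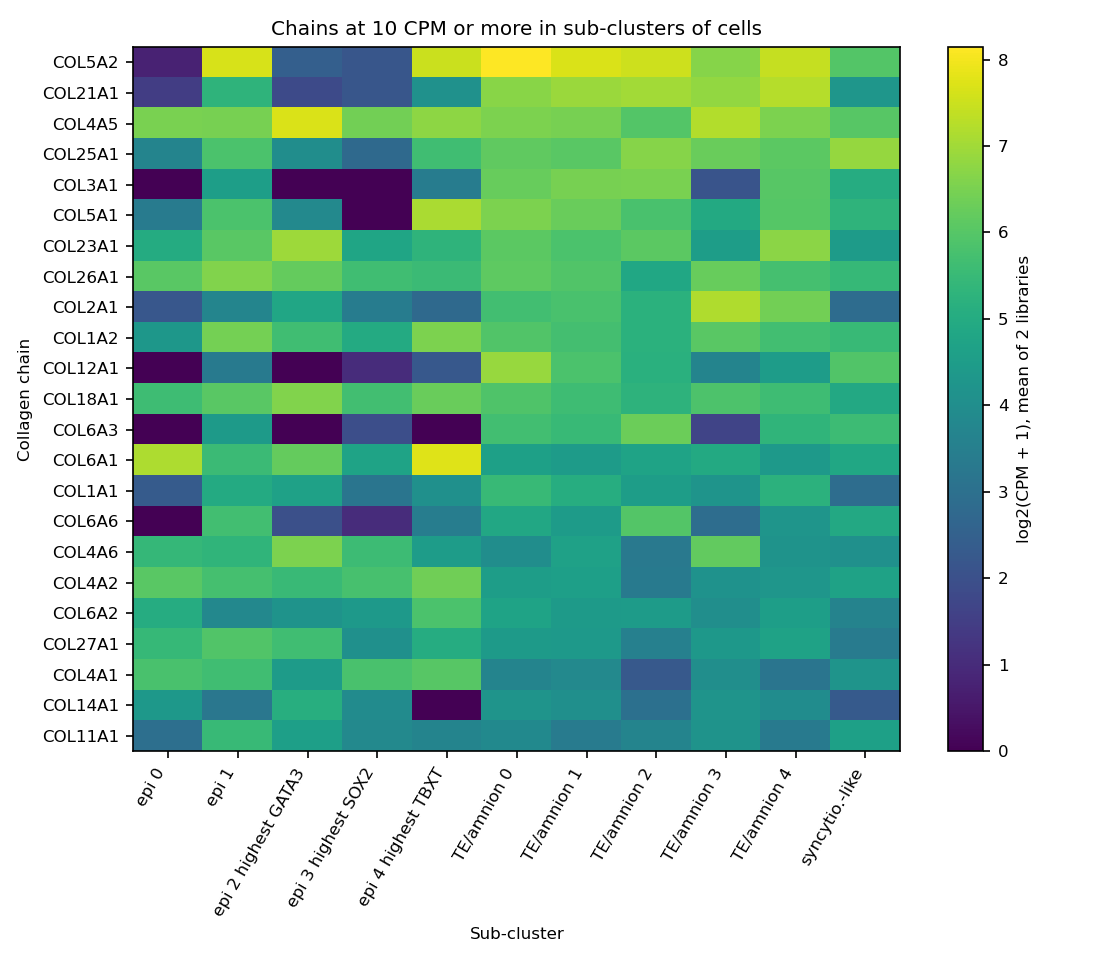
Mean level over both libraries, as log2(CPM + 1), of the 23 chains at 10 CPM or more in the epiblast-like sub-clusters (epi), the trophectoderm/amnion-like sub-clusters (TE/amnion) and the syncytiotrophoblast-like class. COL3A1 and COL6A3 are dark in most epi columns and in TE/amnion 3, and COL6A1 is brightest in epi 4.

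The trophectoderm/amnion-like class was split into 5 sub-clusters in the same way after its values had been seen, again with no test. A sub-cluster of 114 cells, led by CLDN10, NTS and TP63, stood apart from the other 4 in its collagens. It held COL3A1 at 2.92 and 3.68 CPM, where the other 4 held 55.1 to 105 CPM, and COL6A3 at 1.46 and 2.95 CPM. COL2A1 was highest there at 150.5 and 136 CPM, as were COL4A5 at 154 and 141 CPM and COL4A6 at 75.2 and 69.2 CPM. LUM was also lowest there, at 43.8 and 87.7 CPM, and POU5F1 was at 55.5 and 117 CPM. In COL3A1 and COL6A3 the 114 cells stood about as low as the epiblast-like class, and in COL2A1 they stood above both classes.

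The other sub-clusters differed by single chains. In the sub-cluster of 395 cells COL12A1 was at 123 and 111 CPM and COL5A2 at 279.6 and 285 CPM, the highest of the 5. In the sub-cluster of 315 cells COL6A3 was at 76.3 and 79.7 CPM, COL6A6 at 77.8 and 45.8 CPM and COL4A1 at 3.94 and 3.76 CPM. COL23A1, at 94.3 and 116 CPM, was highest in the sub-cluster of 291 cells. The 327 cells led by the cell cycle genes TOP2A and UBE2C had COL3A1 at 103 and 74.1 CPM and COL12A1 at 50.1 and 61.3 CPM. COL21A1 was present throughout, from 106 and 97.7 CPM in the sub-cluster of 395 cells to 154 and 148 CPM in that of 291.

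The syncytiotrophoblast-like class, 28 and 85 cells led by PGF and CYP19A1, is described with no test. All 5 of its list's markers in both tables were detected, but their summed level was 588 CPM in library 1 and 165 CPM in library 2. Its collagens together were at 762 and 857 CPM, against 1296 and 1275 CPM in the trophectoderm/amnion-like and 1157 and 847 CPM in the epiblast-like class. COL25A1 was its leading chain at 96.9 and 134 CPM, and COL19A1 reached 20.2 and 31.5 CPM, its highest level in any of the 3 named classes. COL12A1 was at 59.9 and 59.8 CPM, close to the trophectoderm/amnion-like class. COL21A1, at 16.02 and 20.97 CPM, and COL2A1, at 0.843 and 11.7 CPM, were low as in the epiblast-like class.

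Next, the trophectoderm/amnion-like cells were divided by whether they carried a UMI of DCN or LUM, which encode decorin and lumican, small proteoglycans that bind collagen fibrils. The division used 1 random portion of each cell's UMIs thinned to 2500, and levels were read from the other. A UMI was found in 280 of 621 cells of library 1 (45.1%) and in 382 of 752 of library 2 (50.8%). In the portion read, LUM was at 414 and 444 CPM in the cells with such a UMI and at 166 and 184 CPM in those without. COL3A1 and COL6A3 were higher in the cells with a DCN or LUM UMI, and COL2A1, COL4A6 and COL4A5 were lower. Of 36 chains tested 7 rose, 5 fell and 24 did not pass the test, where 8.15% of all 15580 genes tested were called, 4.22% higher and 3.93% lower. The median log2 fold change was -0.13 over the 36 chains and 0.00061 over all genes.

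These calls rest on 2 libraries with 1 residual degree of freedom and on a spread pooled over genes. The DESeq2 Wald test called 96 genes in all and 3 chains, COL3A1, COL6A3 and COL2A1, and these 3 were also the chains called under each of the 10 settings. Without the library as a block 4 chains were higher and 3 lower.

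COL3A1 was at 102 and 114 CPM in the cells with a DCN or LUM UMI and at 40.2 and 35.2 CPM in the others (log2 fold change 1.55 ± 0.079 SE, adjusted p = 5.35e-80). COL6A3 was at 60.2 and 61.2 against 38.4 and 32.9 CPM (log2 fold change 0.80 ± 0.090 SE, adjusted p = 1.43e-16). COL2A1 was at 46.7 and 43.2 against 75.004 and 84.3 CPM (log2 fold change -0.79 ± 0.081 SE, adjusted p = 7.97e-20). The kinds of cell did not overlap for these 3, nor for the other chains called. They did not overlap either for some chains that were not called, COL5A1 and COL6A2 among them. How many of all genes did not overlap was not counted. COL5A2 was at 237 and 222 against 175 and 187 CPM (log2 fold change 0.38 ± 0.058 SE, adjusted p = 9.4e-09). COL4A6 was at 15.8 and 15.8 against 28.1 and 28.05 CPM (log2 fold change -0.79 ± 0.13 SE, adjusted p = 2.5e-07). COL4A5 was at 75.9 and 77.7 against 102 and 101 CPM (log2 fold change -0.37 ± 0.070 SE, adjusted p = 1.33e-05). Over the class as a whole, the type IV chains of the X-linked pair were thus lower in the cells with a DCN or LUM UMI, where COL3A1 was higher. Both calls were lost under the DESeq2 Wald test, and COL4A6 was not lower in every sub-cluster, as given below.

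The remaining rises were smaller or less even. COL1A1 was at 35.5 and 38.9 against 28.8 and 25.8 CPM (log2 fold change 0.48 ± 0.11 SE, adjusted p = 0.000342), COL12A1 at 59.3 and 68.9 against 55.4 and 44.99 CPM (log2 fold change 0.39 ± 0.083 SE, adjusted p = 0.000124) and COL6A6 at 36.05 and 31.9 against 28.2 and 25.8 CPM (log2 fold change 0.36 ± 0.11 SE, adjusted p = 0.0184). COL8A1 was at 12.7 and 5.75 against 4.61 and 4.13 CPM, a call that rests more on library 1. Of the remaining falls, COL21A1 was at 114 and 105 against 135 and 131 CPM (log2 fold change -0.24 ± 0.064 SE, adjusted p = 0.00424) and COL25A1 at 65.8 and 72.2 against 87.99 and 77.2 CPM (log2 fold change -0.22 ± 0.074 SE, adjusted p = 0.0378). COL25A1 turned and was called higher, at 0.24, when cells of at least 5000 UMIs were clustered anew. COL1A2, at 49.7 and 53.5 against 48.5 and 53.4 CPM (log2 fold change 0.052 ± 0.086 SE, adjusted p = 0.824), did not pass the test although COL1A1 did; the difference between these 2 chains was not tested. COL5A1, at 70.2 and 73.3 against 66.5 and 64.6 CPM (log2 fold change 0.16 ± 0.077 SE, adjusted p = 0.198), was not called here and was called higher under 3 other settings.

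**Figure D5:**
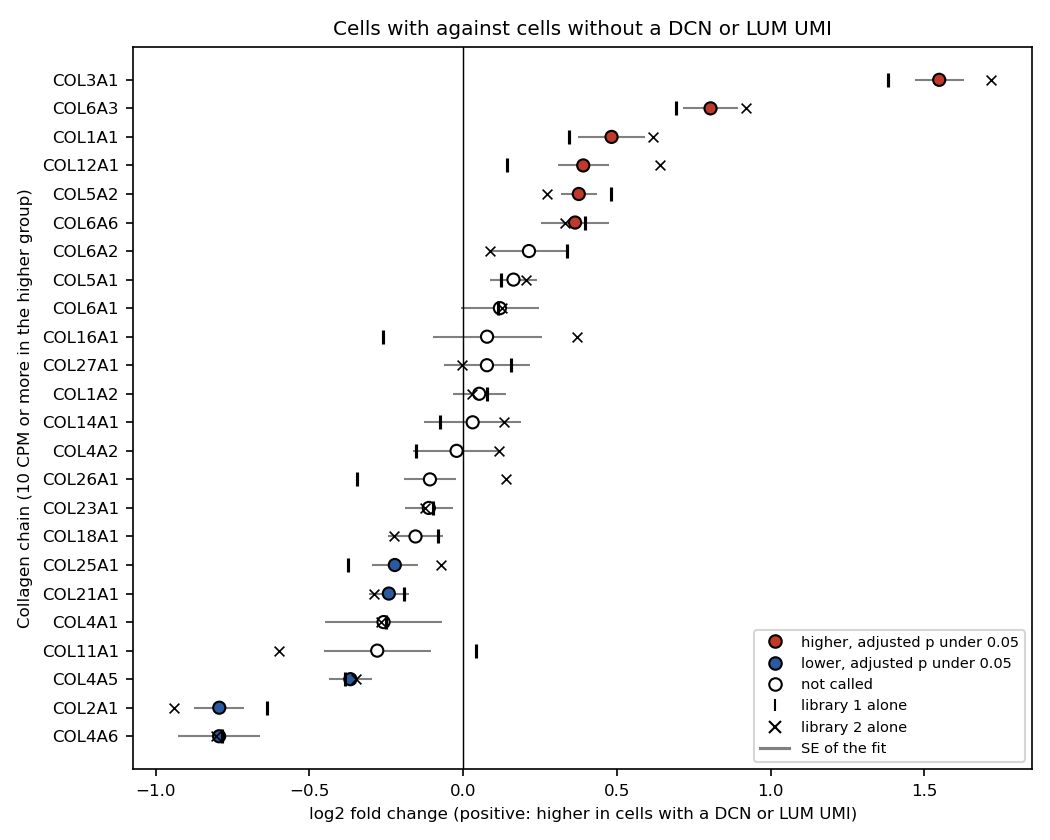
Log2 fold change of the chains tested at 10 CPM or more in the higher kind of cell, cells with over cells without a DCN or LUM UMI within the trophectoderm/amnion-like class. Symbols are as in the plot of class folds. COL3A1 stands highest at 1.55, and COL4A6 and COL2A1 lowest, both at -0.79.

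Cells with a DCN or LUM UMI were also deeper, with median depths of 42940 and 35996 UMIs against 35856 and 33306 UMIs, and were not spread evenly over the sub-clusters. Of the cells in the 114-cell sub-cluster that reached the depth, 5 of 59 in library 1 and 13 of 50 in library 2 had such a UMI, against 43.8 to 56.9% in the other 4. Within sub-clusters, described with no test, COL3A1 was higher in the cells with a DCN or LUM UMI in both libraries for 3 of these 4. The exception was the sub-cluster of 315 cells, with 73.4 against 74.8 CPM in library 1 and 150.5 against 48.7 CPM in library 2. In the cycling sub-cluster COL3A1 was at 161 against 26.6 CPM in library 1 and at 93.1 against 47.2 CPM in library 2. COL2A1 was lower in the cells with a DCN or LUM UMI in both libraries for each of the 4, for example at 63.2 against 127.5 CPM in library 2 for the sub-cluster of 291 cells. The other 3 chains followed in this way were less even. COL6A3 was higher with such a UMI in both libraries in the cycling sub-cluster and that of 315 cells, but lower in library 1 in that of 395 cells (44.04 against 47.3 CPM) and in that of 291 cells (42.6 against 46.1 CPM). COL5A2 was higher in both libraries in the same pair of sub-clusters, lower in both in that of 291 cells (171 against 189 CPM and 162 against 163 CPM) and lower in library 2 in that of 395 cells (272 against 304 CPM). COL4A6 was lower in both libraries in the cycling sub-cluster and that of 291 cells, higher in both in that of 315 cells (11.2 against 5.30 CPM and 9.66 against 8.48 CPM), and higher in library 1 in that of 395 cells (15.6 against 14.9 CPM).

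Both comparisons use the cells of the trophectoderm/amnion-like class, so their folds are set side by side and not tested against each other. COL12A1, COL1A1, COL3A1, COL5A2, COL6A3 and COL6A6 were called higher in both. COL4A5 and COL4A6 were called lower in both. COL2A1, COL21A1 and COL25A1 were higher in the trophectoderm/amnion-like class than in the epiblast-like class, yet lower in its cells with a DCN or LUM UMI. Among the chains called in both, COL3A1, COL6A3 and COL2A1 alone kept the second call under each of the 10 other settings. COL25A1 was called higher when cells of at least 5000 UMIs were clustered anew. How many of all genes were called in both was not counted. COL4A1, COL4A2, COL6A1, COL13A1, COL9A1, COL9A2, COL18A1 and COL27A1 were called lower in the class comparison and were not called in the second.

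Collagen chains need enzymes and chaperones to fold, leave the cell and join fibrils, and 66 such genes in 6 lists were followed in the same fits. In the class comparison 49 were tested, 15 rose, 8 fell and 26 did not pass the test, where 47.4% of all genes tested were called, 23.9% higher and 23.5% lower, so the share called was near that of all genes. The median log2 fold change was 0.17. The counts of the 6 lists below are to be read against the same shares. Prolyl hydroxylation stabilises the helix, and P4HA1 rose (log2 fold change 0.64 ± 0.17 SE, adjusted p = 0.00242), as did P4HB, the partner subunit (log2 fold change 0.40 ± 0.14 SE, adjusted p = 0.0189). P3H4, of the lysyl hydroxylation complex, fell (log2 fold change -0.74 ± 0.24 SE, adjusted p = 0.0113). Hydroxylation and glycosylation had 2 rises and 2 falls among 14 tested genes.

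Among the 11 tested genes of folding and export 5 rose and 1 fell. CREB3L1, a transcription factor of secretory cells, was at 21.6 and 17.6 CPM against 6.72 and 5.900 CPM (log2 fold change 1.73 ± 0.32 SE, adjusted p = 5.3e-05), and SEC24D, a coat protein of transport vesicles, also rose (log2 fold change 1.02 ± 0.16 SE, adjusted p = 5.3e-06). SERPINH1, the collagen chaperone HSP47, fell (log2 fold change -0.43 ± 0.13 SE, adjusted p = 0.00682). For propeptide cleavage 2 rose and 1 fell of 6 tested. ADAMTS2, which removes the amino-terminal propeptide of fibrillar chains, was at 39.9 and 38.9 CPM against 7.33 and 2.11 CPM (log2 fold change 3.30 ± 0.31 SE, adjusted p = 1.06e-09), and FURIN rose (log2 fold change 0.88 ± 0.26 SE, adjusted p = 0.00743). PCOLCE2, an enhancer of carboxy-terminal cleavage, was at 12.3 and 10.2 CPM against 77.6 and 88.5 CPM (log2 fold change -2.77 ± 0.22 SE, adjusted p = 2.1e-11).

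Cross-linking had 1 rise and 1 fall of 3 tested. LOXL2 was at 57.98 and 57.2 CPM against 10.4 and 8.85 CPM (log2 fold change 2.69 ± 0.21 SE, adjusted p = 1.31e-11) and LOXL3 at 0.642 and 0.543 CPM against 15.3 and 9.69 CPM (log2 fold change -4.19 ± 0.52 SE, adjusted p = 1.64e-07), so these lysyl oxidases moved in opposite directions. Of the collagen receptors ITGA2, the integrin chain that binds type I and other collagens, was at 140.3 and 131 CPM against 7.33 and 8.43 CPM (log2 fold change 4.22 ± 0.27 SE, adjusted p = 2.66e-13). MRC2, an endocytic collagen receptor, was at 12.1 and 9.63 CPM against 63.6 and 45.9 CPM (log2 fold change -2.21 ± 0.22 SE, adjusted p = 4.46e-09). The other 3 receptors tested did not pass the test. Of the breakdown genes 4 rose and 2 fell of 10 tested. CTSB, a lysosomal protease, rose (log2 fold change 1.98 ± 0.16 SE, adjusted p = 4.83e-11), as did the membrane-bound collagenase MMP14 (log2 fold change 1.25 ± 0.32 SE, adjusted p = 0.00171). MMP16 was at 10.5 and 9.02 CPM against 181 and 146 CPM (log2 fold change -3.95 ± 0.16 SE, adjusted p = 2.45e-17).

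In the cells with a DCN or LUM UMI 6 of 53 tested pathway genes rose, 2 fell and 45 did not pass the test, where 8.15% of all genes tested were called, 4.22% higher and 3.93% lower. P4HB (log2 fold change 0.24 ± 0.063 SE, adjusted p = 0.00312), PPIB, a proline isomerase of the endoplasmic reticulum (log2 fold change 0.26 ± 0.055 SE, adjusted p = 0.000129), SPARC, a collagen-binding chaperone (log2 fold change 0.39 ± 0.064 SE, adjusted p = 6.49e-08), and KDELR2 (log2 fold change 0.31 ± 0.064 SE, adjusted p = 6.18e-05) were among the rises. The gelatinase MMP2 (log2 fold change 0.43 ± 0.12 SE, adjusted p = 0.00705) and CTSB (log2 fold change 0.21 ± 0.064 SE, adjusted p = 0.0208) were the others. PCOLCE2 (log2 fold change -0.96 ± 0.18 SE, adjusted p = 1.08e-05) and MMP16 (log2 fold change -2.04 ± 0.21 SE, adjusted p = 9.84e-19) fell. The DESeq2 Wald test called 0 of these genes higher and 1 lower.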

How the data were processed

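Single-cell RNA libraries were prepared with droplet chemistry that tags the 3' end, per the labels' protocols. The authors deposited 1 table of raw UMI counts per library, and Cell Ranger 9.0.0 and GRCh38 are named in the submitters' processing notes. No barcode in them falls under 200 detected genes and no gene under 2 barcodes. Library 1 holds 38665475 UMIs and library 2 holds 45208758. Levels are CPM over the kept barcodes of a library.

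UMIs were divided at random, per molecule, into a portion for clustering and a portion for reading levels. Clustering (scanpy 1.11.5, igraph 0.11.9) took 2000 variable genes, 30 principal components, 15 neighbours and Leiden resolution 0.5, leaving out collagen chains, 66 collagen pathway genes, mitochondrial and ribosomal protein genes. Clusters were named by a score over marker lists, and the score was written after the data were seen. Clusters whose median depth over both libraries was low stayed unnamed. Scrublet marked 4 and 3 barcodes, which stayed in.

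UMI counts were summed per library and kind of cell and tested by the quasi-likelihood method of edgeR 4.0.16 after filterByExpr and TMM scaling, with library as a blocking term; adjustment was by Benjamini-Hochberg over all genes tested, with a threshold of 0.05. Genes in both tables, 25556, entered. SE is the fold divided by the square root of F. DESeq2 1.42.0 was an alternative. The edgeR fits of both comparisons, not DESeq2, were run on simulated data with known changes. Of 100 changes of 2-fold the class fit recovered 62 and the DCN or LUM fit 76. Of 100 changes of 4-fold each recovered 100. Among the genes left unchanged, 2 were called in the class fit and 7 in the DCN or LUM fit. Changes were set only in genes at 10 CPM or more, and counts were drawn with 1 fixed spread for all genes. Recovery at lower levels, or with folds that differ between libraries, was not tried. For the DCN or LUM call, cells were thinned to 2500 UMIs of the clustering portion.

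Chains at 5 CPM or more were named with their level, those at 10 CPM or more in the higher class with fold, SE and adjusted p, and of each pathway list up to 2 rises and 2 falls at 10 CPM or more. The members and lists were chosen with earlier results of these data known. Sub-clusters of the trophectoderm/amnion-like class were added after seeing the data. Gene coordinates are from RefSeq, GRCh38.p14, matched by symbol for 44 of 44 chains.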

Additional observations from a re-analysis of the deposited data

Results flagged for a closer look

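Collagen UMIs were also present in barcodes that the filters left out of every comparison. Barcodes under 1000 detected genes, 980 in library 1 and 1013 in library 2, held the chains at 867 CPM (513 UMIs, 95% interval 793 to 945) and 1155 CPM (797 UMIs, 1077 to 1238). Barcodes over 20% mitochondrial UMIs, 71 and 69, held them at 1505 CPM (912 UMIs, 1409 to 1606) and 1410.3 CPM (798 UMIs, 1314 to 1512). The kept barcodes stood at 1219 and 1140.2 CPM. Intervals cover counting error only. As a share of UMIs without mitochondrial genes, the barcodes rich in mitochondrial UMIs stood at 2198 and 2019 CPM, against 1297 and 1212 CPM in the kept barcodes.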

How the results depend on the processing

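In the comparison of trophectoderm/amnion-like with epiblast-like cells, the counts of chains called stayed within 1.5 times of 12 higher and 10 lower under 13 alternatives: size factors as in DESeq2, no filter on low counts, the DESeq2 Wald test, no replicate block, all UMIs, another random split, doublets removed, a mitochondrial limit of 10%, at least 5000 UMIs, Leiden resolution 1.0 and 3 fits that each left out an epiblast-like sub-cluster. The sub-cluster nearest to the trophectoderm or amnion list was left out as an alternative added after the data were seen. The other size factors moved the median over all genes tested from 0.019 to -0.092 on the log2 scale. In 5 of these alternatives the cells were clustered anew, and the naming rule gave the matching cluster another name or none. The cluster that held 105 to 130 of the 131 epiblast-like cells was then used, a choice made after the data were seen; by the naming rule alone these 5 alternatives would give no value. Leaving out a library left folds with no test, since no residual degrees of freedom remained.

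Changes of sign in the class comparison concerned chains with folds near 0 that were not called in either form, apart from COL4A5, which was called at -0.34 and stood at 0.013 without the GATA3-highest sub-cluster; the cause was not tested. COL1A2 stood at -0.025 with the other size factors, -0.027 under DESeq2, -0.12 with all UMIs, -0.11 with another split, -0.22 without doublets, -0.23 at the mitochondrial limit of 10%, -0.30 at 5000 UMIs and -0.0080 at resolution 1.0. COL14A1 stood at 0.022 without the filter, 0.076 with all UMIs, 0.17 with another split, 0.040 at the limit of 10%, 0.035 at 5000 UMIs and 0.51 without the GATA3-highest sub-cluster. COL6A2 stood at 0.098 without the TBXT-highest and COL11A1 at 0.029 without the sub-cluster nearest to the trophectoderm or amnion list.

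The comparison of cells with and without a DCN or LUM UMI depended far more on the fit. Of 1270 genes called, no replicate block left 349, with 4 chains higher and 3 lower and 2 pathway genes higher. The library block is part of the design, since each library supplies both kinds of cell. The DESeq2 Wald test left 96 genes, with 2 chains higher and 1 lower, and 0 pathway genes higher and 1 lower. Its independent filtering was off, a choice made after the filtered run had left most chains without an adjusted p. Chains called lower were 3 with all UMIs, 2 without doublets and 2 at the mitochondrial limit of 10%. Pathway genes called lower were 1 without doublets, 1 at the limit of 10% and 0 at 5000 UMIs. Thinning to 5000 UMIs for the call gave 2280 genes and 11 pathway genes higher. COL3A1 kept its direction in every alternative and each library alone, from 0.92 to 1.75, COL6A3 from 0.62 to 1.17 and COL2A1 from -1.02 to -0.58.

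Signs changed there for COL25A1, at 0.022 without doublets and 0.24 at 5000 UMIs, where it was called higher, against -0.22; the cause was not tested. The other changes of sign were of chains not called: COL27A1 at -0.013 with all UMIs and -0.083 at the limit of 10%; COL4A2 at 0.015 with all UMIs, 0.060 with another split, 0.29 at the limit of 10% and 0.18 at 5000 UMIs. COL11A1 stood at 0.40 and COL1A2 at -0.0075 without doublets, and COL26A1 at 0.059 at the limit of 10%. At 5000 UMIs COL14A1 stood at -0.14, COL18A1 at 0.0062 and COL4A1 at 0.12. With thinning to 5000 UMIs COL14A1 stood at -0.16, COL1A2 at -0.13, COL23A1 at 0.11 and COL6A1 at -0.046. The summed collagen level, 1180 CPM, ranged from 1151 to 1218 CPM over 4 other ways of taking barcodes or averaging. Depth limits the chains under 5 CPM and the epiblast-like class, where folds on few UMIs are less certain than their SE shows.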

Other observations

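In trophectoderm/amnion-like cells thinned to 5000 UMIs, COL3A1 and COL6A3 were found together in 5.31% of 621 cells of library 1 (95% interval 3.69 to 7.38%) and in 5.98% of 752 cells of library 2 (4.40 to 7.93%). The products of their separate shares were 3.21% and 3.69%. COL3A1 and COL2A1 were found together in 3.86% (2.49 to 5.70%) and 2.93% (1.84 to 4.40%), with products of 4.59% and 5.35%. COL1A1 and COL1A2, partners in type I collagen, were found together in 1.93% (1.00 to 3.35%) and 3.06% (1.95 to 4.55%), with products of 2.66% and 2.51%. Intervals cover counting error only, cells of a library share its handling, and no test was made.

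A cluster of 94 and 83 cells at a median depth of 3376 and 3215 UMIs, led by MMP9, S100A7 and PHLDA2, stayed unnamed for its depth. Of its cells deep enough for 5000 UMIs, 37 and 28, a share of 45.9% and 64.3% held any collagen UMI, where the trophectoderm/amnion-like cells had 99.2% and 98.7%.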
